A study of Homo sapiens with 6 samples.

Results

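The BCL2 family of apoptosis regulators was followed through 10 genes, listed by name for their known roles. BCL2, BCL2L1 and MCL1 are pro-survival members, BAX and BAK1 are effectors, and BBC3, PMAIP1, BCL2L11, BID and BIK encode BH3-only proteins. They are 10 of the 60658 gene identifiers measured, and all 10 lay above 0.1 FPKM in each of the 6 libraries. Their RNA was read in CWR22Rv1 and C4-2B MDVR, 2 human cell lines of castration-resistant prostate carcinoma, once for each line under DMSO vehicle and under each of 2 HSP70 inhibitors at 10 µM, Apoptozole (APO) and VER155008 (VER), all for 48 h. C4-2B MDVR is a derivative of C4-2B that resists enzalutamide, an antiandrogen, and it was maintained in medium with 20 µM enzalutamide. The study's methods for the RNA libraries do not restate the drug, and it was taken to be present in all 3 of this line. CWR22Rv1 was grown without that drug, so line and medium cannot be told apart. For the 3 libraries of the resistant line, the labels give LNCaP-C4-2B as source and a parental line as cell type. Their titles name C4-2B MDVR, and the titles were followed.

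FPKM counts the fragments of a gene per length of its transcripts and per mapped fragment of the library, so levels of different genes can be set side by side. A difference is given as log2(FPKM + 0.1) of the inhibitor minus that of DMSO in the same line, and 0.1 understates the change of genes near or below it. With 1 library per condition no difference has a replicate check, and no p-value, SD or interval is given for any value. A gene was said to rise or fall past 1.2-fold, the study's threshold, and also counted past 2-fold. In bulk RNA a lower level of a gene in all cells and a lower share of the cells that express it cannot be told apart. The APO and VER comparisons of a line share their DMSO library.

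The libraries held 17603 to 19376 genes above 0.1 FPKM. All 9 luminal prostate markers given here, among them KLK3 and KRT8, exceeded 1 FPKM in every library. Basal KRT5 and TP63 and endothelial PECAM1 were listed at 0 in all 6. Summed FPKM was 0 to 0.101 over 3 basal, 0 to 0.294 over 3 endothelial, 0.307 to 3.78 over 3 immune and 4.84 to 10.9 over 3 stromal markers. In that order 0, 0, 1 (CD68) and 2 (COL1A1 and DCN) of the 3 exceeded 1 FPKM in any library, DCN only in CWR22Rv1 with DMSO and with VER. Genes of the mitochondrial chromosome held 14.8% to 16.4% of the summed FPKM in C4-2B MDVR, and 25.7% (DMSO), 10.4% (APO) and 25.7% (VER) in CWR22Rv1.

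BCL2 family proteins set whether the outer mitochondrial membrane is opened. BAX and BAK1 form the pores, BCL2, BCL-XL (from BCL2L1) and MCL1 hold them in check, and the BH3-only proteins PUMA (BBC3), NOXA (PMAIP1), BIM (BCL2L11), BID and BIK bind the pro-survival proteins, some of them also activating BAX and BAK1. Cytochrome c leaves through the pore and switches on caspases. Several BH3-only genes are controlled mainly by transcription, with BBC3 and PMAIP1 known as targets of the ATF4 and CHOP branch of the stress response.

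All 10 members share a short BH3 core. In the effectors and BH3-only proteins it is the part that lies in the groove of a pro-survival partner. The core was searched as leucine, any 3 residues, then glycine, alanine or serine, then aspartate. The stretches are shown because they are what unites genes whose RNA moved in opposite directions. Each line gives the coding strand, 5′ to 3′, from GENCODE 29 transcripts on GRCh38. Capitals mark the 18 bases that encode the 6 residues, the position is that of the capitals, and 6 bases flank them on each side. All lie in coding exons.
BCL2 (chr18:63318361-63318378, minus strand): ctgaccCTCCGCCAGGCCGGCGACgacttc
BCL2L1 (chr20:31721934-31721951, minus strand): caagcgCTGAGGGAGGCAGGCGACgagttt
MCL1 (chr1:150578877-150578894, minus strand): gagaccTTACGACGGGTTGGGGATggcgtg
BAX (chr19:48955787-48955804, plus strand): gagtgtCTCAAGCGCATCGGGGACgaactg
BAK1 (chr6:33575399-33575416, minus strand): cggcagCTCGCCATCATCGGGGACgacatc
BBC3 (chr19:47226591-47226608, minus strand): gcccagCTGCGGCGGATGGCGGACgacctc
PMAIP1 (chr18:59902673-59902690, plus strand): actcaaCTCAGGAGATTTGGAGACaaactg
BCL2L11 (chr2:111150103-111150120, plus strand): caagagTTGCGGCGTATTGGAGACgagttt
BID (chr22:17739427-17739444, minus strand): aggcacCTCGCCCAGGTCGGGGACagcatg
BIK (chr22:43127716-43127733, plus strand): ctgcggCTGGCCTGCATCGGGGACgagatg

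In 9 of the 10 the fifth residue of the core was glycine, and BBC3 had alanine. BAK1 and BIK were the most alike pair, with 15 of 18 bases identical, and the least alike pairs had 7 of 18. The pattern is short and was found in 34.9% of the 19553 coding genes translated, or in 13.7% with glycine only, so a match is a description. It occurred once in 9 members and again at another place in BID. The proteins differ in length, from 54 residues for PMAIP1 to 350 for MCL1.

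Under DMSO the lines differed in which members were abundant. In C4-2B MDVR the order of levels, from the highest, was BCL2L1, MCL1, BAX, BID, BIK, BAK1, BCL2L11, PMAIP1, BBC3 and BCL2. In CWR22Rv1 it was MCL1, BAX, BCL2L1, BBC3, BAK1, PMAIP1, BIK, BCL2L11, BCL2 and BID. Without replicates the spread that separates neighbours in these orders is not known. Setting C4-2B MDVR against CWR22Rv1, 5 of the 10 members were higher and 4 lower past 1.2-fold, where 39.2% of the 20903 genes compared were higher and 43.2% lower. Past 2-fold 4 were higher and 1 lower, against 19.4% and 27.2% of all genes. The 4 were BID, BCL2L1, BCL2L11 and BIK, and the 1 was BBC3.

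**Figure D1:**
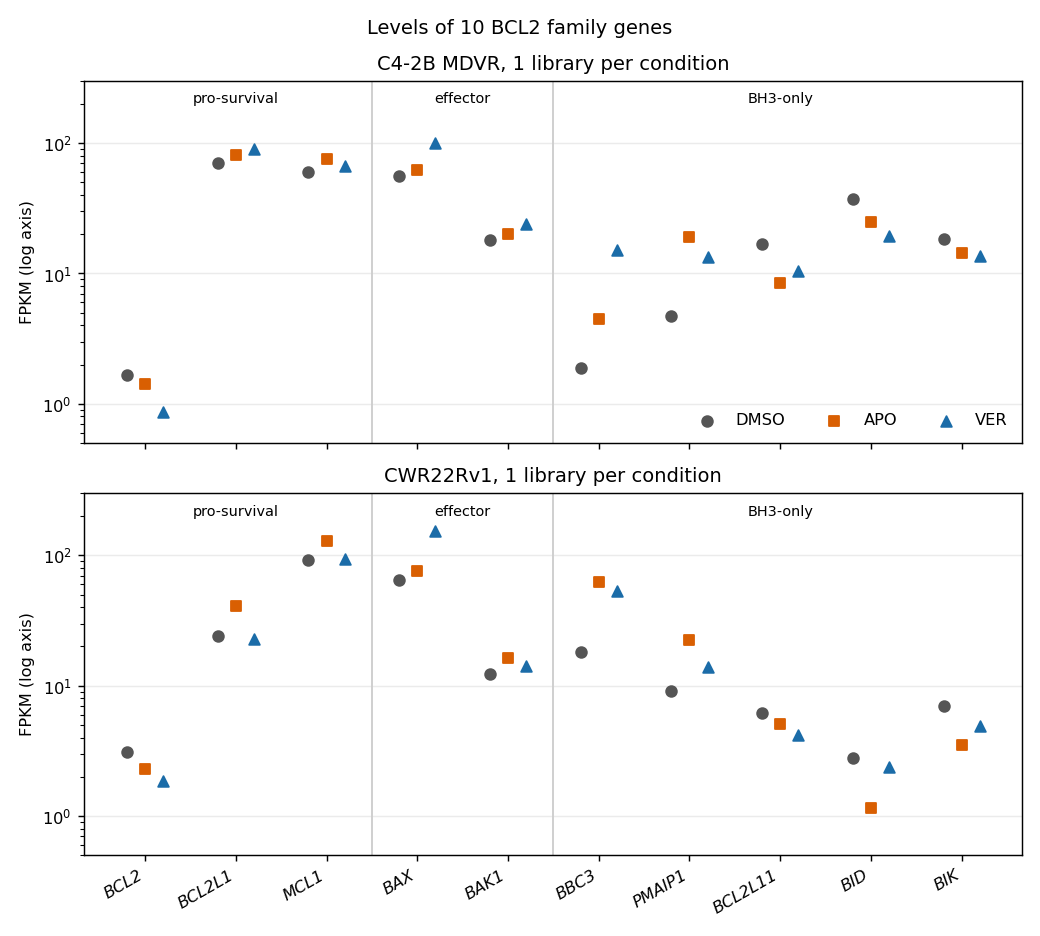
FPKM of the 10 genes on a log axis, 1 point per library (DMSO circles, APO squares, VER triangles), C4-2B MDVR above and CWR22Rv1 below. BBC3 ran from 1.87 to 15.2 in C4-2B MDVR and from 18.2 to 62.0 in CWR22Rv1, while BID was at 37.4 under DMSO in the first and 2.79 in the second.

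Read over the 10 members, rises and falls were about equal in number. With APO in C4-2B MDVR 3 members rose and 3 fell past 1.2-fold, where 37.7% of the 20122 genes compared rose and 35.4% fell. With VER in that line 5 rose and 4 fell, against 35.6% and 34.9%. In CWR22Rv1 5 rose and 4 fell with APO, against 35.6% and 39.2% of 21608 genes, and 3 rose and 3 fell with VER, against 32.1% and 32.3%. The split moved with the scale of the libraries. With each rescaled to the same sum it was 2 against 4 and 6 against 3 with APO in the lines in the order above, and 3 against 4 with VER in CWR22Rv1. Rescaled to the same sum outside the mitochondrial chromosome, the first was again 2 against 4, the second 4 against 4 and the third 3 against 4.

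Past 2-fold, 2 members rose in every comparison. With APO in C4-2B MDVR these were BBC3 and PMAIP1 and none fell, beside 15.4% and 13.3% of all genes. With VER they were the same pair, beside 14.4% and 13.3%. With APO in CWR22Rv1 BBC3 and PMAIP1 rose and BID fell, beside 13.8% and 16.8%. With VER in CWR22Rv1 BBC3 and BAX rose and none fell, beside 10.8% and 8.92%. No count of rises or falls in the 4 comparisons was more than 2 members away from the share of all genes applied to 10, so the counts alone do not set the members apart.

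Among the pro-survival genes, BCL2 (ENSG00000171791, chr18:63123346-63320128), which gave the family its name, was the least abundant. It was at 1.66 FPKM (DMSO), 1.42 (APO) and 0.859 (VER) in C4-2B MDVR, and at 3.12, 2.28 and 1.84 in CWR22Rv1. Each treated library was below the DMSO library of its line, and VER was the lowest in both. In C4-2B MDVR the log2 difference was -0.21 with APO and -0.87 with VER, the first of which stayed within 1.2-fold, and in CWR22Rv1 it was -0.44 and -0.73. BCL2 held 0.542% to 2.63% of the summed FPKM of the 3 pro-survival genes, so it weighed little in their sum.

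BCL2L1 (ENSG00000171552, chr20:31664452-31723989) encodes BCL-XL. Its level in C4-2B MDVR was 70.1 FPKM (DMSO), 81.2 (APO) and 91.0 (VER). In CWR22Rv1 it was 24.1, 41.0 and 22.8 in the same order. BCL2L1 thus rose past 1.2-fold with VER in one line (log2 difference 0.38) and with APO in the other (0.77), and the remaining differences were 0.21 and -0.08.

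MCL1 (ENSG00000143384, chr1:150574551-150579738) encodes a short-lived pro-survival protein. Its FPKM was 60.2 (DMSO), 75.3 (APO) and 66.8 (VER) in C4-2B MDVR, and 91.5, 129 and 93.9 in CWR22Rv1. MCL1 rose with APO in both lines, by 0.32 and 0.49 on the log2 scale, and stayed within 1.2-fold with VER (0.15 and 0.04). The rise in C4-2B MDVR was small enough to depend on the scale: with each library rescaled to the same sum it was 0.17. BCL2L1 was the most abundant pro-survival gene in all 3 C4-2B MDVR libraries and MCL1 in all 3 CWR22Rv1 libraries, with a BCL2L1 to MCL1 ratio of 1.08 to 1.36 in the first line and 0.243 to 0.319 in the second.

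The effector BAX (ENSG00000087088, chr19:48954815-48961798) encodes a protein that moves from the cytosol to the mitochondrial membrane when activated. It was at 56.2 FPKM (DMSO), 62.0 (APO) and 101 (VER) in C4-2B MDVR, and at 65.2, 75.8 and 154 in CWR22Rv1. VER was the highest library of each line, and BAX was then the most abundant of the 10 members. The log2 difference with VER was 0.84 and 1.24, whereas with APO it was 0.14 and 0.22, within 1.2-fold, and the first turned to -0.02 with libraries rescaled to the same sum outside the mitochondrial chromosome. VER minus APO on the same log2 scale was 0.70 in C4-2B MDVR and 1.02 in CWR22Rv1, at equal dose and time.

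BAK1 (ENSG00000030110, chr6:33572547-33580293) encodes the effector that resides in the membrane. Its FPKM was 18.0 (DMSO), 19.9 (APO) and 24.0 (VER) in C4-2B MDVR, and 12.4, 16.3 and 14.2 in CWR22Rv1. Every treated library was above its DMSO library, but BAK1 rose past 1.2-fold only with VER in C4-2B MDVR (log2 difference 0.41) and with APO in CWR22Rv1 (0.40, or 0.25 and within 1.2-fold with libraries rescaled to the same sum outside the mitochondrial chromosome). The other 2 differences were 0.15 with APO in C4-2B MDVR, which turned to -0.02 under the same rescaling as that of BAX, and 0.20. Pseudogenes of BAK1 were listed at 0 to 0.465 FPKM.

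Among the BH3-only genes, BBC3 and PMAIP1 rose and BCL2L11 and BIK fell in all 4 comparisons, and BID fell in 3. BBC3 (ENSG00000105327, chr19:47220822-47232766), which encodes PUMA, a binder of every pro-survival protein, was at 1.87 FPKM (DMSO), 4.45 (APO) and 15.2 (VER) in C4-2B MDVR. In CWR22Rv1 it was at 18.2, 62.0 and 52.9. The treated libraries of both lines all exceeded their DMSO library, by FPKM ratios of 2.38 and 8.13 in C4-2B MDVR and 3.40 and 2.90 in CWR22Rv1. On the log2 scale these were 1.21, 2.96, 1.76 and 1.53, and 88.1%, 98.6%, 94.9% and 94.7% of the genes compared had a lower difference. VER in C4-2B MDVR, the largest rise among the members, still left BBC3 below its DMSO level in CWR22Rv1. BBC3 was 9.75-fold lower in C4-2B MDVR than in CWR22Rv1 under DMSO.

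PMAIP1 (ENSG00000141682, chr18:59899948-59904306) encodes NOXA, a small protein that mainly binds MCL1. It was at 4.72 FPKM (DMSO), 19.0 (APO) and 13.3 (VER) in C4-2B MDVR, and at 9.18, 22.3 and 13.8 in CWR22Rv1. APO was the highest library in each line. PMAIP1 rose in C4-2B MDVR by FPKM ratios of 4.02 (APO) and 2.83 (VER) and in CWR22Rv1 by 2.43 and 1.51, which on the log2 scale were 1.98, 1.48, 1.27 and 0.59. VER minus APO was -0.50 and -0.68 on that scale. In C4-2B MDVR, PMAIP1 was thus higher with APO and BBC3 with VER, for which VER minus APO was 1.75. In CWR22Rv1 both were higher with APO, with VER minus APO for BBC3 at -0.23.

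BCL2L11 (ENSG00000153094, chr2:111119378-111168447) encodes BIM, which binds all pro-survival proteins and can activate BAX. Its FPKM was 16.8 (DMSO), 8.50 (APO) and 10.4 (VER) in C4-2B MDVR, and 6.13, 5.05 and 4.20 in CWR22Rv1. All 4 treated libraries were lower than DMSO, and the log2 differences were -0.97, -0.68, -0.27 and -0.53. The third of these, APO in CWR22Rv1, lay at the edge of 1.2-fold and was -0.16 with every library rescaled to the same sum. MIR4435-2HG, a long non-coding RNA on the opposite strand, overlaps the gene. It was at 10.6, 19.8 and 16.1 FPKM in C4-2B MDVR and at 0.738, 3.05 and 0.720 in CWR22Rv1. The labels describe a kit that marks the strand, but whether the counting used it is not given in the sources used here, so how reads were shared between this pair was not tested.

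BID (ENSG00000015475, chr22:17734138-17774770) encodes the protein that caspase-8 cuts to link death receptors to mitochondria. It was at 37.4 FPKM (DMSO), 24.7 (APO) and 19.3 (VER) in C4-2B MDVR, and at 2.79, 1.14 and 2.38 in CWR22Rv1. Each treated library was lower, with log2 differences of -0.60, -0.95, -1.22 and -0.22, the last of which stayed within 1.2-fold. Its level differed more between the lines than with either inhibitor, and under DMSO BID was 13.4-fold higher in C4-2B MDVR.

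BIK (ENSG00000100290, chr22:43110748-43129712) encodes a BH3-only protein of the endoplasmic reticulum. Its FPKM was 18.5 (DMSO), 14.5 (APO) and 13.7 (VER) in C4-2B MDVR, and 6.96, 3.49 and 4.89 in CWR22Rv1. BIK fell in all 4 comparisons, with log2 differences of -0.35, -0.43, -0.98 and -0.50. Its lowest library in C4-2B MDVR was that with VER and in CWR22Rv1 that with APO.

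**Figure D2:**
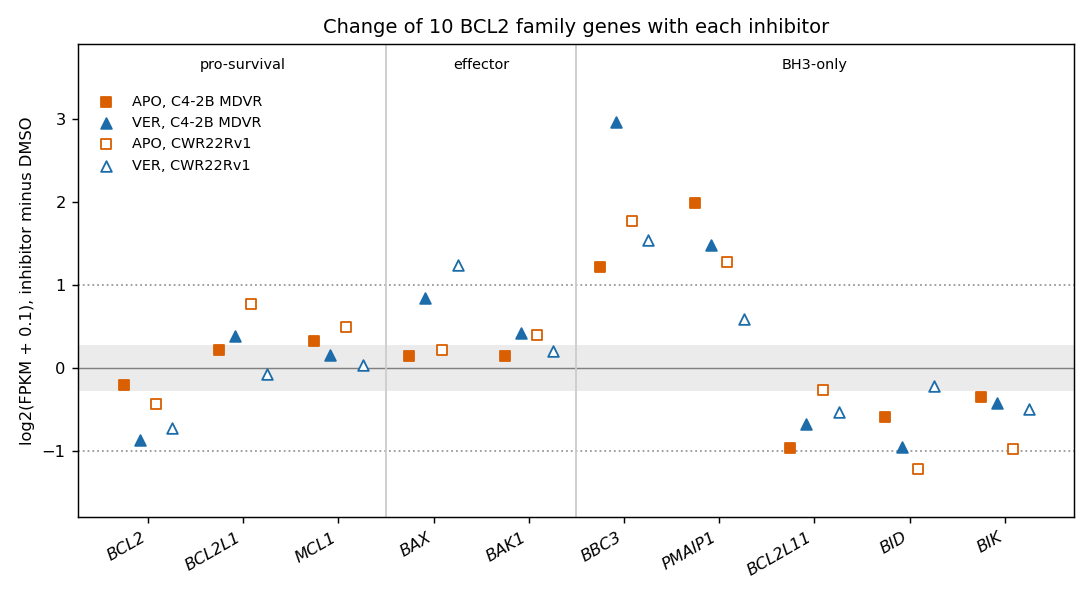
Difference of log2(FPKM + 0.1), inhibitor minus DMSO, for each gene (x axis), with APO as squares, VER as triangles, C4-2B MDVR filled and CWR22Rv1 open. The grey band spans 1.2-fold and the dotted lines 2-fold. BBC3 (1.21 to 2.96) and PMAIP1 (0.59 to 1.98) lie above the band in all 4 comparisons, and BCL2L11 and BIK lie below it.

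Set against each other as classes, the members did not move as blocks. The median log2 difference of the 3 pro-survival, 2 effector and 5 BH3-only members was 0.21, 0.14 and -0.35 with APO in C4-2B MDVR, where the median of all genes was 0.00 (in the others -0.01 to 0.00). It was 0.15, 0.63 and -0.43 with VER in that line. In CWR22Rv1 it was 0.49, 0.31 and -0.27 with APO, and -0.08, 0.72 and -0.22 with VER. The median of the 7 effector and BH3-only members lay below that of the pro-survival members with APO, the difference being -0.07 in C4-2B MDVR and -0.27 in CWR22Rv1, and above it with VER (0.26 and 0.28). These medians summarise few genes that moved in opposite directions, since in each comparison the BH3-only class held 2 members that rose, beside 3 that fell, or 2 that fell with VER in CWR22Rv1.

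Summed levels weight the classes by abundance. The pro-survival genes summed to 132 FPKM (DMSO), 158 (APO) and 159 (VER) in C4-2B MDVR, and to 119, 172 and 118 in CWR22Rv1. The effectors summed to 74.3, 81.9 and 125 in the first line and 77.5, 92.1 and 168 in the second. The pro-survival sum was thus highest with APO in CWR22Rv1 and the effector sum highest with VER in both lines. The BH3-only genes summed to 79.3, 71.1 and 71.9 FPKM in C4-2B MDVR and to 43.3, 94.0 and 78.2 in CWR22Rv1. In C4-2B MDVR the rise of BBC3 and PMAIP1, together 6.58, 23.4 and 28.5 FPKM, was offset by BCL2L11, BID and BIK, together 72.7, 47.7 and 43.4. In CWR22Rv1 the first pair summed to 27.4, 84.3 and 66.7 FPKM and the other 3 to 15.9, 9.68 and 11.5. BBC3 and PMAIP1 therefore went from 8.31% of the BH3-only sum under DMSO to 32.9% (APO) and 39.7% (VER) in C4-2B MDVR, and from 63.3% to 89.7% and 85.3% in CWR22Rv1.

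The sum of effector and BH3-only genes over that of pro-survival genes was 1.16 (DMSO), 0.969 (APO) and 1.24 (VER) in C4-2B MDVR, and 1.02, 1.08 and 2.08 in CWR22Rv1. VER in CWR22Rv1 had the highest ratio of the 6 libraries, with 154 FPKM from BAX alone. The ratio was also taken without the most abundant gene of its numerator and of its denominator. These were BAX and BCL2L1 in C4-2B MDVR and BAX and MCL1 in CWR22Rv1, so every BH3-only gene stayed in. It was then 1.57, 1.19 and 1.42 in C4-2B MDVR, VER lying below DMSO, and 2.05, 2.55 and 3.75 in CWR22Rv1. The ratio of BAX to BCL2 RNA was 34.0, 43.7 and 117 in C4-2B MDVR and 20.9, 33.3 and 83.8 in CWR22Rv1, highest with VER in both.

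**Figure D3:**
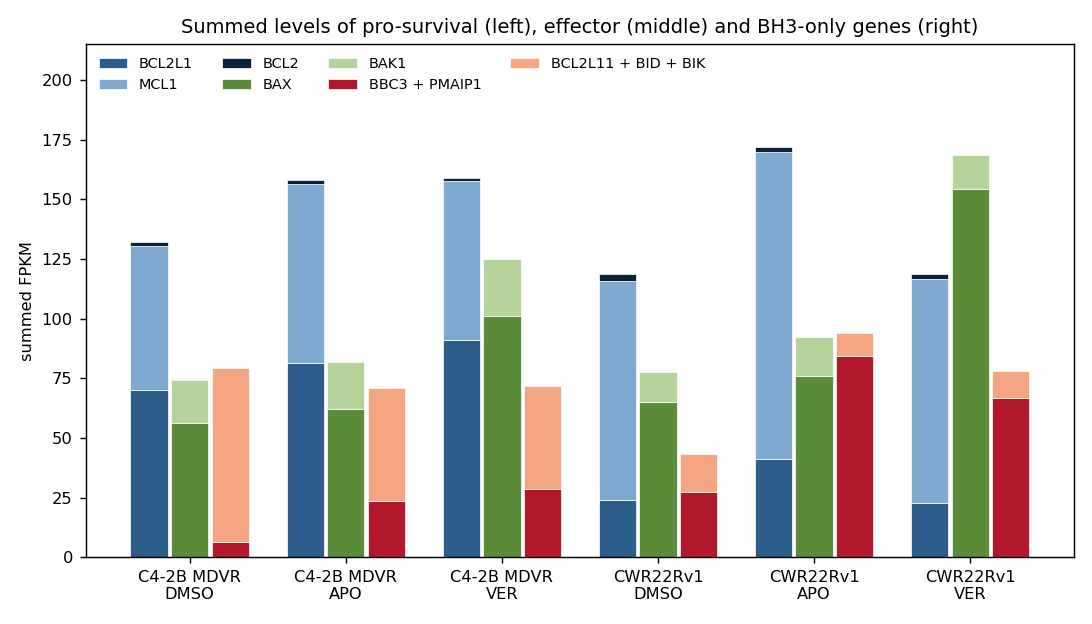
Summed FPKM (y axis, from 0) of the pro-survival (blue, left bar), effector (green, middle) and BH3-only genes (red, right) in each of the 6 libraries, stacked by gene or gene pair. The effector bar is highest with VER (125 and 168 FPKM), and the dark red segment of BBC3 and PMAIP1 grows with both inhibitors in both lines.

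A further 13 family genes were listed by their place in the family, of which 11 passed the 0.1 FPKM filter in C4-2B MDVR and 12 in CWR22Rv1. Past 1.2-fold, 5 rose and 3 fell with APO in C4-2B MDVR, beside 37.7% and 35.4% of all genes. With VER in that line 7 rose and 1 fell, beside 35.6% and 34.9%. In CWR22Rv1 it was 7 and 4 with APO, beside 35.6% and 39.2%, and 4 and 4 with VER, beside 32.1% and 32.3%. Their median log2 difference in this order was 0.24, 0.33, 0.49 and 0.05, and that of all genes 0.00, 0.00, -0.01 and 0.00. Among the most abundant were BAD, a BH3-only protein held inactive by phosphorylation, at 56.2 to 89.3 FPKM, and BNIP3, a mitochondrial protein induced in hypoxia, at 28.9 to 81.1. Those past 2-fold in any comparison were HRK, BMF, BCL2L12 and BCL2L15. In a single comparison 0 to 3 rose and 0 or 1 fell past 2-fold, beside 10.8% to 15.4% and 8.92% to 16.8% of all genes.

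HRK, a BH3-only gene known mainly from neurons, was at 0.0696 FPKM (DMSO), 2.25 (APO) and 0.881 (VER) in C4-2B MDVR, and at 0.236, 2.02 and 0.317 in CWR22Rv1. The log2 differences of HRK were 3.79 (APO) and 2.53 (VER) in the first line and 2.65 and 0.31 in the second, from levels so low that the added 0.1 FPKM weighs on the size. BMF, a BH3-only protein tied to the cytoskeleton, was at 1.31, 1.34 and 2.90 FPKM and at 9.22, 15.3 and 11.8, with log2 differences of 0.03, 1.09, 0.73 and 0.35. BCL2L12, a more distant relative, was at 54.1, 33.8 and 21.5 FPKM and at 62.6, 33.4 and 32.2, and it fell in all 4, with differences of -0.67, -1.32, -0.91 and -0.96. In both lines its treated libraries were all lower, with VER lowest. BCL2L15 was at 0.306, 3.49 and 1.11 FPKM in C4-2B MDVR and at 0.159, 0 and 0.0329 in CWR22Rv1.

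Promoter windows from 250 bases before to 50 after each start were taken from RefSeq (GRCh38.p14). The C/EBP-ATF element TGATGNAA, searched on both strands, was found in 3.62% of 35116 windows and in 0 of the 13 windows of the 8 members with an entry. Of the 16 windows of the 10 other family genes with an entry, 2 held it, in HRK and BCL2A1. BCL2A1 was at 0 to 0.0664 FPKM, under the 0.1 FPKM filter in both lines. Whether the element bears on the level of either gene was not tested. HRK was chosen for display after its values were seen, since it had the largest difference of the other family genes in 3 of the 4 comparisons, all but VER in CWR22Rv1. Its match lies 75 bases before the start, at chr12:116881498-116881527 with flanks, shown on the gene's own strand (minus) with the match in capitals.
HRK promoter: cgggggccggaTGATGTAAcccccctcccc

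No window of BBC3 or PMAIP1 held these letters, which says only that such short windows lack them.

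Of 11 transcription factors known to act on family genes, 5 rose and 4 fell past 1.2-fold with APO in C4-2B MDVR. With VER in that line it was 7 and 2. In CWR22Rv1 it was 7 and 3 with APO and 3 and 2 with VER. Of all genes, 32.1% to 37.7% rose and 32.3% to 39.2% fell past 1.2-fold in each comparison. The median log2 difference of the 11 factors was 0.04, 0.34, 0.41 and -0.06 in the order of these comparisons. DDIT3 and ATF3, of the integrated stress response, had the largest differences. DDIT3, which encodes CHOP, was at 18.5 FPKM (DMSO), 437 (APO) and 185 (VER) in C4-2B MDVR, and at 49.3, 753 and 125 in CWR22Rv1. ATF3 was at 7.19, 170 and 58.1 FPKM and at 16.0, 232 and 26.7 in the same order. APO was the highest library for both genes in both lines. The log2 differences of DDIT3 were 4.55, 3.32, 3.93 and 1.34, those of ATF3 4.54, 2.999, 3.84 and 0.73, and those of ATF4 1.79, 1.72, 1.18 and 0.68.

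JUN, a subunit of AP-1, rose with APO by 1.07 and 2.22 and not with VER (0.20 and -0.17). FOXO1, an activator of BCL2L11, had log2 differences of 1.09, 0.67, 0.28 and -0.11. E2F1, which drives entry into S phase, fell in all 4 (-1.35, -1.43, -1.78 and -0.62), as did MYC (-2.41, -0.55, -1.39 and -0.50). Whether any of these factors acted on the members was not tested.

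**Figure D4:**
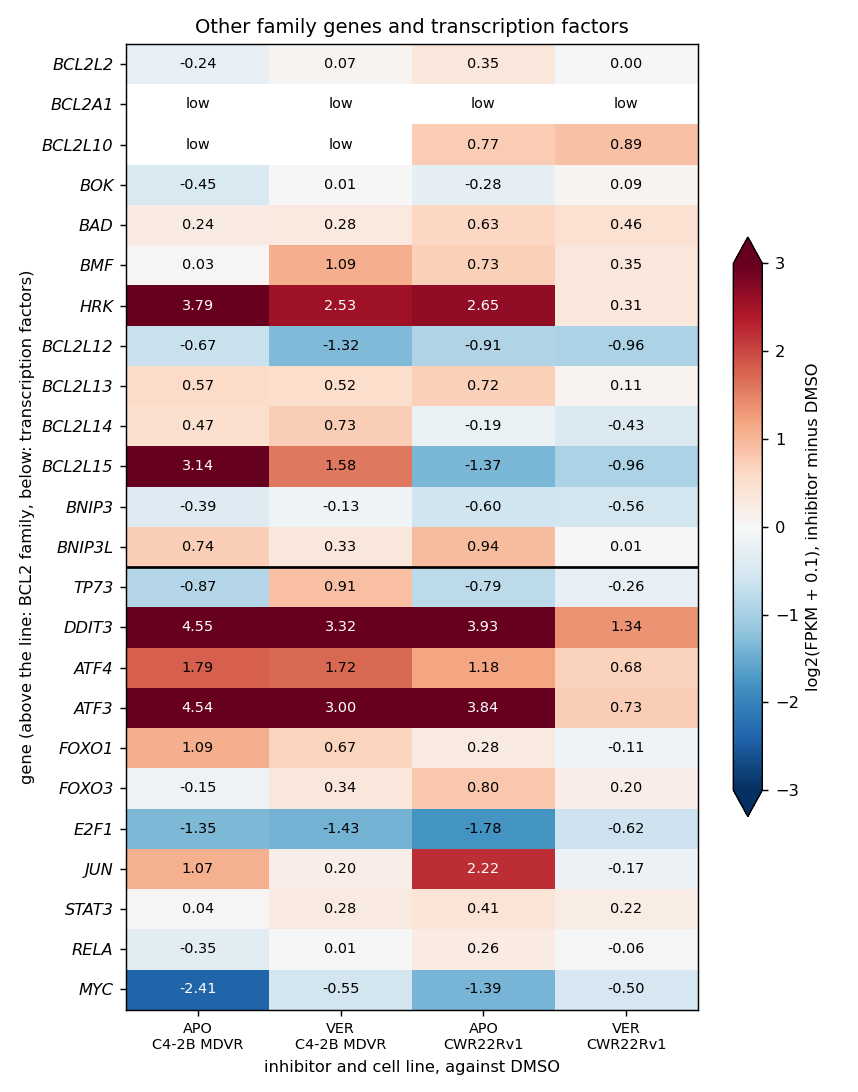
Difference of log2(FPKM + 0.1), inhibitor minus DMSO, for the 13 other family genes (above the line) and 11 transcription factors (below), with 1 column per comparison and colours limited to -3 and 3. Cells marked low were under the 0.1 FPKM filter. HRK, DDIT3 and ATF3 are dark red in every column but VER in CWR22Rv1, and BCL2L12, E2F1 and MYC are blue in all 4.

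Genes downstream of the pore were listed too. Of 14, among them CYCS (cytochrome c), APAF1 and the caspases, in C4-2B MDVR 2 rose and 5 fell with APO and 3 and 6 with VER, and in CWR22Rv1 5 and 4 with APO and 2 and 5 with VER, where 32.1% to 37.7% of all genes rose and 32.3% to 39.2% fell. None of the 14 passed 2-fold in any of the 4, beside 10.8% to 15.4% and 8.92% to 16.8% of all genes. Their median log2 difference was -0.10, -0.16, -0.09 and -0.15. Chosen after the values were seen as the nearest to 2-fold in either direction, CASP9 had differences of 0.17, 0.58, 0.98 and 0.66 and VDAC1, a channel of the outer membrane, of -0.80, -0.33, -0.59 and -0.36. CYCS was at 184 FPKM with DMSO in both lines and its log2 differences were -0.57, -0.59, -0.20 and -0.47. Of 9 genes for the turnover or binding of family proteins, such as HUWE1, USP9X and FBXW7 for MCL1, 1 to 3 rose and 0 to 3 fell past 1.2-fold in each comparison and none passed 2-fold, with medians of 0.10, 0.08, 0.18 and -0.24.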

How the data were processed

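RNA was analysed from 6 libraries, 1 per condition. Per the labels and methods, paired-end reads of polyadenylated RNA were aligned to GRCh38 with HISAT and quantified with Cufflinks and Cuffnorm, whose versions are not given in the sources used here. The labels name a stranded library kit and the study's methods another maker's kit. The deposited values are FPKM per gene, which the authors normalized between libraries. Identifiers were matched to GENCODE 29 (57047 of 60658). FPKM are not counts and read totals are unknown, so no count test, interval or floor is given. Ratios of low values placed the depth of the libraries at 1 to 1.64 relative to C4-2B MDVR with DMSO, which was the shallowest.

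Differences of log2(FPKM + 0.1) were computed for genes that exceeded 0.1 FPKM in any of a line's 3 libraries (for the lines under DMSO, in either of the 2) and counted past 1.2-fold and 2-fold. The members and lists were chosen with earlier results of these data known. All 10 members were named, and, of the other lists, genes past 2-fold in at least 1 comparison and the most abundant. For BBC3, PMAIP1, BCL2L11 and BCL2, the 3 genes with the nearest pattern were found. BH3 cores were searched in translated GENCODE transcripts. Alternatives were pseudocounts of 0.01 and 1, other filters, 3 rescalings, and thresholds of 1.5-fold and 2-fold. The ratio of the effector and BH3-only sum to the pro-survival sum was also taken with each sum without its most abundant gene. The functions were tested on simulated data. Python 3.11.15, pandas 2.3.3, numpy 2.4.6, biopython 1.88 and matplotlib 3.10.9 were used. Some genes covered by these lists are not reported here.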

Additional observations from a re-analysis of the deposited data

Results flagged for a closer look

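BCL2L15, a family gene, had log2 differences of opposite sign in the lines. It was at 0.306 to 3.49 FPKM in C4-2B MDVR and at 0 to 0.159 in CWR22Rv1. In CWR22Rv1 both treated libraries lay below 0.1 FPKM, so the added 0.1 largely sets the size of its fall there. Its log2 difference with APO was 3.14 in C4-2B MDVR and -1.37 in CWR22Rv1, which are 4.51 apart. With VER it was 1.58 and -0.96, which are 2.54 apart. BCL2L14 had log2 differences with VER of 0.73 in C4-2B MDVR (1.33 to 2.27 FPKM) and -0.43 in CWR22Rv1 (0.808 to 0.572 FPKM), which are 1.16 apart. With 1 library per condition the difference between the lines was not tested for any of these.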

How the results depend on the processing

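No paired analysis was possible because each condition had 1 library and no replicate number. No member past 1.2-fold changed sign under any alternative, while within 1.2-fold MCL1 with VER in CWR22Rv1 ran from -0.03 to 0.09 and BAX and BAK1 with APO in C4-2B MDVR from -0.02 to 0.14 and 0.15. In all settings but the larger thresholds, the 4 rises of BBC3 and PMAIP1 and the falls of BIK stayed past 1.2-fold. Filters on low FPKM only choose which genes are compared, so they could not move a member's value. Over single members, 451 values kept their side of the threshold, 42 no longer passed it and 7 newly passed it. Of the 42, 12 came from the 1.5-fold and 25 from the 2-fold threshold, where the values themselves were unchanged. The others were 1 with a pseudocount of 1, 2 with rescaling to the same sum and 2 with that outside the mitochondrial chromosome. The 451 include 50 for each filter setting, where no value could differ. Past 1.5-fold, 5 members remained with APO in CWR22Rv1. Past 2-fold, 2, 2, 3 and 2 remained in the order APO and VER in C4-2B MDVR and APO and VER in CWR22Rv1, and 5 between the lines. The difference between the median of the effector and BH3-only members and that of the pro-survival members was 0.26 and 0.28 with VER and -0.27 with APO in CWR22Rv1, past 1.2-fold but not past 1.5-fold or 2-fold. With a pseudocount of 1 it was 0.25 and 0.26 with VER, within 1.2-fold. Without BAX and the line's most abundant pro-survival gene, the ratio of death-promoting to pro-survival sums was 2.05 (DMSO), 2.55 (APO) and 3.75 (VER) in CWR22Rv1. It was 1.57, 1.19 and 1.42 in C4-2B MDVR, where VER was then below DMSO. Rescaling to the same sum shifted the median of genes above 1 FPKM by -0.14 with APO in C4-2B MDVR and 0.11 in CWR22Rv1, and to the same sum outside the mitochondrial chromosome by -0.15 in both. Under one of these, MCL1 with APO in C4-2B MDVR (0.16 and 0.17) and BAK1 with APO in CWR22Rv1 (0.25) no longer passed 1.2-fold, while BCL2 with APO in C4-2B MDVR (-0.36), BAX with APO in CWR22Rv1 (0.33) and BID with VER in CWR22Rv1 (-0.28) did. Rescaling by the median ratio or outside the mitochondrial chromosome put BAX below its CWR22Rv1 level past 1.2-fold under DMSO (-0.32 and -0.34). BCL2L11 with APO in CWR22Rv1 was -0.24 with a pseudocount of 1.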

Other observations

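Genes with the most similar pattern were sought among 12227 protein-coding genes with a mean above 1 FPKM and in none of the lists, by the root mean square distance of their log2 levels, each centred over the 6 libraries. The nearest to PMAIP1 were ZNF226 (0.15), RNF144B (0.16) and SHMT2, a mitochondrial enzyme of serine and glycine metabolism (0.16). SHMT2 was at 177, 536 and 420 FPKM in C4-2B MDVR and 294, 715 and 359 in CWR22Rv1 with DMSO, APO and VER. The nearest to BBC3 were C1orf54 (0.35), ZC3H6 (0.37) and STOM (0.42). The distance is not scaled to the range of a gene, and BBC3 ran from 1.87 to 62.0 FPKM and PMAIP1 from 4.72 to 22.3. Distances of different members therefore cannot be set against each other. STOM was at 5.52, 12.5 and 41.7 FPKM in C4-2B MDVR and 61.4, 94.5 and 205 in CWR22Rv1. The nearest to BCL2L11 were RHPN2 (0.08), GNL3L (0.09) and NFKBIA (0.09), and to BCL2 they were NSD2 (0.08), C6orf136 (0.09) and DDX39B (0.12). With 6 points, and 3 of each line, such likeness is a description of these libraries and was not tested.

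APO and VER differed at equal dose and time, without a replicate to judge the size. VER minus APO on the log2 scale was 0.999 for BID, -0.85 for BCL2L1 and -0.45 for MCL1 in CWR22Rv1, and -0.66 for BCL2 in C4-2B MDVR.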
